A study of Mus musculus with 6 samples.

Results

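The suppressor of cytokine signalling (SOCS) family has 8 genes in mouse, Socs1 to Socs7 and Cish, and all 8 were measured here. They were chosen by gene symbol in the platform's probe-to-gene table, which gives them 11 of the 26851 probesets on the array, among 19288 genes with a probeset of their own. Socs2, Socs3 and Socs6 have 2 probesets each and the other members 1. The cells were cultured mouse embryonic fibroblasts, connective tissue cells grown from the embryo, measured on Affymetrix gene-level arrays. There were 3 arrays of cells with the hairpin construct shARF and 3 of cells with the hairpin construct shSCR. Both groups were of the cells that the series title names dp53R, and all sample titles carry the word Ras. The sources used here do not say what dp53R stands for or what promoter drives the hairpins, and shSCR is taken here as the control hairpin. The labels call the replicates biological and do not name the cultures or animals behind them. The p-values therefore cover only the spread among these 6 samples, which may be technical.

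SOCS proteins are the classic feedback brakes of cytokine signalling. A cytokine receptor activates Janus kinases (JAKs), which phosphorylate the receptor and the STAT transcription factors, and STATs switch on several SOCS genes. The SOCS protein then binds phosphotyrosines on the receptor or the kinase through its SH2 domain, and through its SOCS box it recruits elongins and cullin 5 to mark its partners for degradation. Fibroblasts answer interferons and cytokines of the interleukin 6 family through this pathway. ARF, the product of Cdkn2a that shARF is named for, is a tumour suppressor best known for restraining MDM2.

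Promoter sequences are shown as background, because STATs are known to induce several members. No promoter was given for Socs2, the member called lower in the results below, so the sequences do not bear on it. RefSeq promoters of assembly GRCm38.p6, running from 250 bases before to 50 after the annotated start, were given for 4 of the 8 members: Cish, Socs1, Socs3 and Socs4. Capitals mark matches, on either strand, to the STAT element TTCNNNGAA or to the core of the interferon-stimulated response element, searched as GAAA, any 2 bases and GAAA again. For Socs1 and Socs3 the 250 bases before the start are printed, and for Cish a 30-base window around its matches.
Cish, chr9:107296654-107296683, plus strand: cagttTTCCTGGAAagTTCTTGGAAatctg
Socs3, chr11:117969367-117969616, minus strand: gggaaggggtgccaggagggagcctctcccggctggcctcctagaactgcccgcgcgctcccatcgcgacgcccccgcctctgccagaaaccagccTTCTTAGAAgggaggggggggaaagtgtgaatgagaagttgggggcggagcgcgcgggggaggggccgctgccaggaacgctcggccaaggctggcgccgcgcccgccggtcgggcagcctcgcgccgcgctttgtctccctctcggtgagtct
Socs1, chr16:10785537-10785786, minus strand: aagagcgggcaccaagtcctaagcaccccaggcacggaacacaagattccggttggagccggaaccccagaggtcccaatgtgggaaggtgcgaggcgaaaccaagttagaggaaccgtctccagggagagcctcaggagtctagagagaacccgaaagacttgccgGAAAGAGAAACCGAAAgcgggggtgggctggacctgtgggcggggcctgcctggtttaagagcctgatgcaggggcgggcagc

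The Cish window held 2 STAT elements at its annotated start, and the Socs3 promoter held 1 that begins 154 bases before the start. The Socs1 promoter held 2 interferon-type matches that share bases, beginning 83 and 77 bases before the start, and 0 STAT elements. Socs4 held neither. Of 32851 promoters of this length, 8.30% held a STAT element and 3.44% an interferon-type match. A match is a run of letters and not a shown binding site.

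The hairpin's target was lower on every shARF array. Cdkn2a (probeset 10514340) gave signals of 315.4, 254 and 285.7 in shARF cells, against 535.1, 538.9 and 516 in shSCR cells. It fell by 0.90 on the log2 scale (limma, adjusted p = 0.00459). The signal medians of the 6 arrays lay between 41.97 and 42.86, and precision is limited by the number of arrays. All 10 fibroblast markers were above the detection level. Among them Vim had a mean signal of 6322 in shARF cells and 6046 in shSCR cells. Of the 10, 0 passed limma's test and 4 had an unadjusted p under 0.05, where 22.2% of all genes did. In these 4 the groups did not overlap, which with shARF lower held for 16.6% of all genes. Their log2 differences went both ways. Dcn (0.71) and S100a4 (0.16) lay above 0, and Thy1 (-0.38) and Pdgfra (-0.22) below. The summed signal of the 9 macrophage markers was 207.8 to 232.4 in shARF cells and 206.8 to 234 in shSCR cells, and the leukocyte gene Ptprc was below detection. Of the macrophage, lymphocyte and endothelial markers 4, 3 and 4 were tested. Limma called 0 of them, with 2, 1 and 1 at an unadjusted p under 0.05, where 22.2% of all genes were. The 2 macrophage markers lay in opposite directions, Cd68 at -0.36 and Tyrobp at 0.18 on the log2 scale. Of 7 epithelial markers 6 were tested. Limma called 1 of them higher (Krt18), where 1.62% of all genes were called higher, and 4 had an unadjusted p under 0.05. The summed signals of the 7 were 539.3 to 669 in shARF cells and 461.1 to 480.5 in shSCR cells. The Krt18 call was lost without 5 of the 6 arrays in turn. Among the other epithelial markers at that unadjusted p, Krt8 (0.74) and Krt5 (0.27) lay on the side of Krt18. Krt19 lay the other way at -0.20 on the log2 scale, and none of these was called. Of 6 neural markers, all tested, limma called 1 higher (Nefl), against the same 1.62%, and 4 had an unadjusted p under 0.05. Their sums were 856.7 to 936.6 in shARF cells and 669.7 to 728.9 in shSCR cells. Among the other neural markers at that unadjusted p, Nefm (0.61) and Map2 (0.31) lay on the side of Nefl. Tubb3 lay the other way at -0.52, and none of these was called. The part of these markers in the results below was not tested.

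Of the 8 family members, 1 was called: Socs2, lower in shARF cells at the brighter of its 2 probesets. Over the 15145 genes of the fit, limma called 4.01% at the adjusted p threshold of 0.05, and 2.38% were called lower. The other members differed by -0.35 to 0.13 on the log2 scale and did not pass. Of the 8 differences 7 were below 0, against 53.2% of all genes tested, and the median of the 8 was -0.22, against -0.01 over all genes. At each gene's brightest probeset, the arrays of the groups did not overlap, with shARF lower, for 5 of the 8 members. These were Cish, Socs1, Socs2, Socs3 and Socs5, and the same held for 16.6% of all genes. At the second probesets of Socs2 and Socs3 the groups overlapped. All 11 probesets lay above the detection level, which is the 25th percentile of each array, on all 6 arrays.

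**Figure D1:**
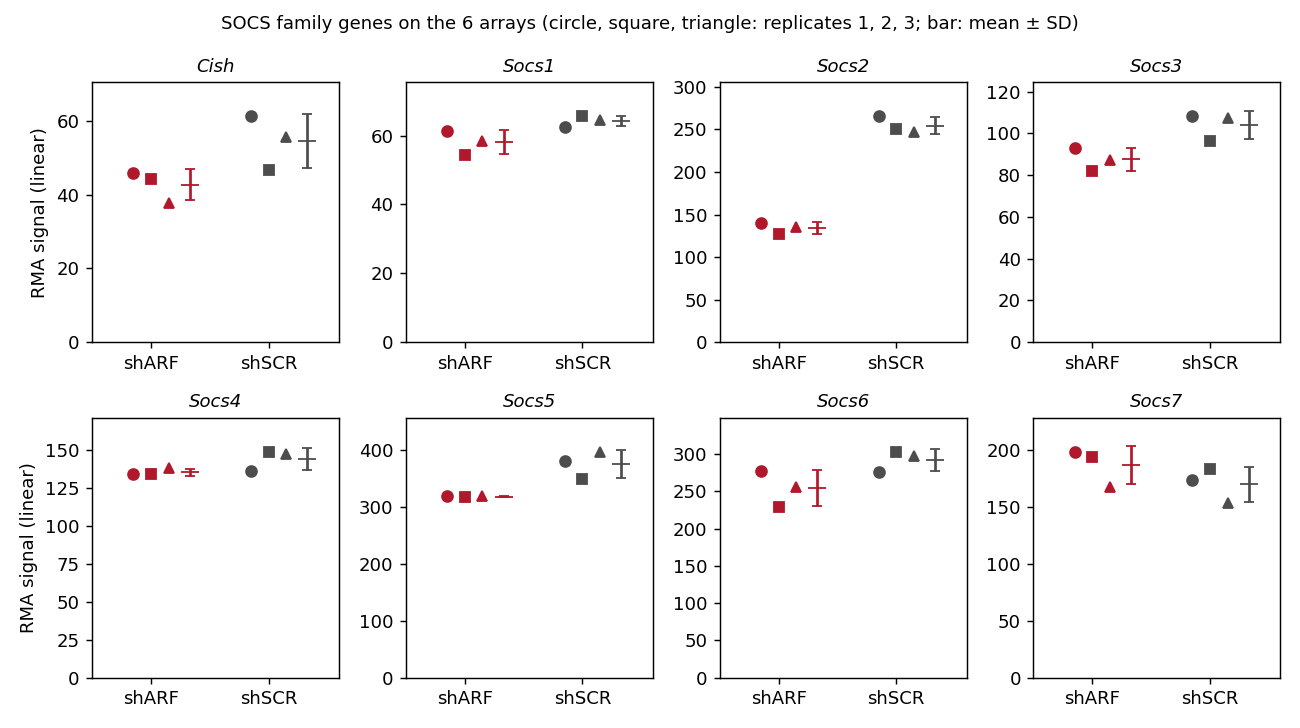
RMA signal (linear scale, from 0) of the probeset that represents each SOCS family gene on the 3 shARF arrays (red, left) and the 3 shSCR arrays (grey, right), with the mean and SD beside each group. Socs2 is the one panel with a wide gap: 127.1 to 140.6 in shARF cells and 247.5 to 265.5 in shSCR cells.

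Socs2 encodes a protein best known for limiting growth hormone signalling through STAT5, and mice without it grow large. Its brighter probeset (10394674) gave signals of 140.6, 127.1 and 135.2 in shARF cells, against 265.5, 250.3 and 247.5 in shSCR cells. Every shARF array lay far below every shSCR array, and the spread within each group was small beside the gap. The means were 134 ± 6.79 in shARF cells and 254 ± 9.71 in shSCR cells (SD, n = 3 each). The log2 difference was -0.92 ± 0.066 (SE), a change in signal of -47.2%, with a 95% interval from -52.6% to -41.3% (limma, adjusted p = 0.00212). By its p-value Socs2 ranked 10 of the 15145 genes. Among the genes called lower, 22 fell as far or further, Socs2 included. In these bulk RNA samples, fewer cells with the transcript and less transcript per cell cannot be told apart.

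The second Socs2 probeset did not show a fall of that size. Probeset 10372069 gave signals of 37.3, 36.3 and 39.2 in shARF cells, against 64.4, 38.1 and 42.2 in shSCR cells. The groups lay close together apart from shSCR replicate 1, and the difference of -0.32 ± 0.181 did not pass (limma, adjusted p = 0.363), nor did it without that array (-0.09). The log2 gap between the probesets was 1.91, 1.81 and 1.79 in shARF cells, against 2.04, 2.72 and 2.55 in shSCR cells, a mean difference of -0.60. These gaps did not overlap, and the two-sided exact permutation test gave p = 0.1, the smallest that 3 arrays against 3 allow. With both probesets averaged, Socs2 was called lower, by 0.62 on the log2 scale (limma, adjusted p = 0.0189). That average contains the brighter probeset, so it is no separate evidence of a fall.

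The identifiers of these probesets do not place them alike, and the fall is uncertain to that extent. Socs2 lies on chromosome 10. Of the 27 named probesets among the 20 identifiers on each side of 10372069, 25 belong to genes of chromosome 10. Of the 26 around 10394674, 23 belong to genes of chromosome 12 and 0 to chromosome 10. The platform table annotates both probesets to Socs2 by RefSeq accession, and whether the brighter one reads a near-identical copy elsewhere in the genome was not tested. The same holds for Socs6, a gene of chromosome 18: all 35 named neighbours of its brighter probeset 10566668 belong to chromosome 7, while 12 of the 25 around 10460118 belong to chromosome 18.

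Cish, the family's founding member, binds the docking sites of STAT5 on receptors and is itself a STAT5 target. Its signals were 45.7, 44.3 and 37.8 in shARF cells, against 61.2, 46.6 and 55.6 in shSCR cells. The groups did not overlap, though shARF replicate 1 and shSCR replicate 2 almost met. The difference was -0.35 ± 0.119 and did not pass (limma, adjusted p = 0.16), and the 95% interval of the change, which is not adjusted for the number of genes, ran from -35.3% to -4.83%.

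Socs1 and Socs3 can block JAK kinases directly through a short kinase inhibitory region, Socs1 mainly on interferon receptors and Socs3 on the interleukin 6 receptor chain gp130. Socs1 gave signals of 61.4, 54.5 and 58.6 in shARF cells, against 62.6, 65.6 and 64.6 in shSCR cells. The shARF arrays lay just below the shSCR arrays. The difference was -0.15 ± 0.066 and did not pass (limma, adjusted p = 0.268), and its 95% interval ran from -18.9% to 0.641%.

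Interferon target genes rose in the same cells. Of 18 tested genes on a list of interferon targets 16 rose in shARF cells and 0 fell, with a median log2 difference of 1.45. Among all genes 1.62% were called higher. Mx2 and Cxcl9, counted in the 16, were above the detection level on 3 shARF arrays each, and on 1 and 2 shSCR arrays. These 2 passed the filter only with the shARF arrays counted, so their calls are no support for a rise. Ifit3, an antiviral RNA-binding protein, rose by 2.64 ± 0.171 (limma, adjusted p = 0.00154). Only 10 of the list passed when shSCR replicate 3 was left out, and 11 when shSCR replicate 1 was. This list was chosen with that rise already known and is no independent evidence of it. Of the 17 listed genes with a RefSeq promoter, 7 held the interferon-type element of which Socs1 holds 2 overlapping copies. A STAT element was held by 4 of the 17. A gene counts here if any of its promoters matched. Of all promoters, each counted singly, 3.44% held the interferon-type element and 8.30% a STAT element.

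Socs3 was read by 2 probesets. Probeset 10383010 gave 93, 82.1 and 87.5 in shARF cells, against 108.2, 96.4 and 107.5 in shSCR cells. These groups did not overlap, and the difference of -0.25 ± 0.077 missed the threshold (limma, adjusted p = 0.134). Probeset 10393449 gave 72.6, 89.9 and 89.1 in shARF cells, against 81.9, 96.2 and 91.4 in shSCR cells. Here the groups overlapped, and the difference was -0.10 ± 0.104 (limma, adjusted p = 0.617). The platform table ties 10393449 to the RefSeq transcript of Socs3 and 10383010 to a single other accession.

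Socs4 and Socs5 form a pair with long amino-terminal regions, and both have been linked to breakdown of the epidermal growth factor receptor. Socs5 gave 318, 316.7 and 318.4 in shARF cells, against 379.6, 347.9 and 396.5 in shSCR cells. The shARF arrays were nearly identical and all below the shSCR arrays. The difference was -0.24 ± 0.067, or -15.1% with a 95% interval from -23.8% to -5.29%, and it did not pass (limma, adjusted p = 0.111). With a mean-variance trend in limma's prior it did (adjusted p = 0.0449, where the 15 alternatives ranged from 0.0449 to 0.26).

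Socs4 gave 134.4, 134.3 and 138.2 in shARF cells, against 136.2, 149.2 and 147.4 in shSCR cells. The groups overlapped at shSCR replicate 1. The difference was -0.09 ± 0.062 (limma, adjusted p = 0.459), with a 95% interval of the change from -15% to 4.01%.

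Socs6 and Socs7 also form a pair, and have been linked to insulin receptor substrates and to the receptor kinase KIT. Socs6 at probeset 10566668 gave 277, 228.7 and 256.2 in shARF cells, against 275.5, 303.3 and 297 in shSCR cells. At probeset 10460118 it gave 190.1, 195.4 and 203 in shARF cells, against 242, 198.5 and 210.1 in shSCR cells. The groups overlapped at both, with differences of -0.20 ± 0.085 and -0.14 ± 0.085 (limma, adjusted p = 0.235 and 0.394). Socs7 was the member with a value above 0. It gave 198.2, 193.3 and 167.4 in shARF cells, against 173.3, 183.1 and 153 in shSCR cells. Those groups overlapped, and the difference was 0.13 ± 0.096 (limma, adjusted p = 0.468), with a 95% interval of the change from -6.1% to 28.3%.

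**Figure D2:**
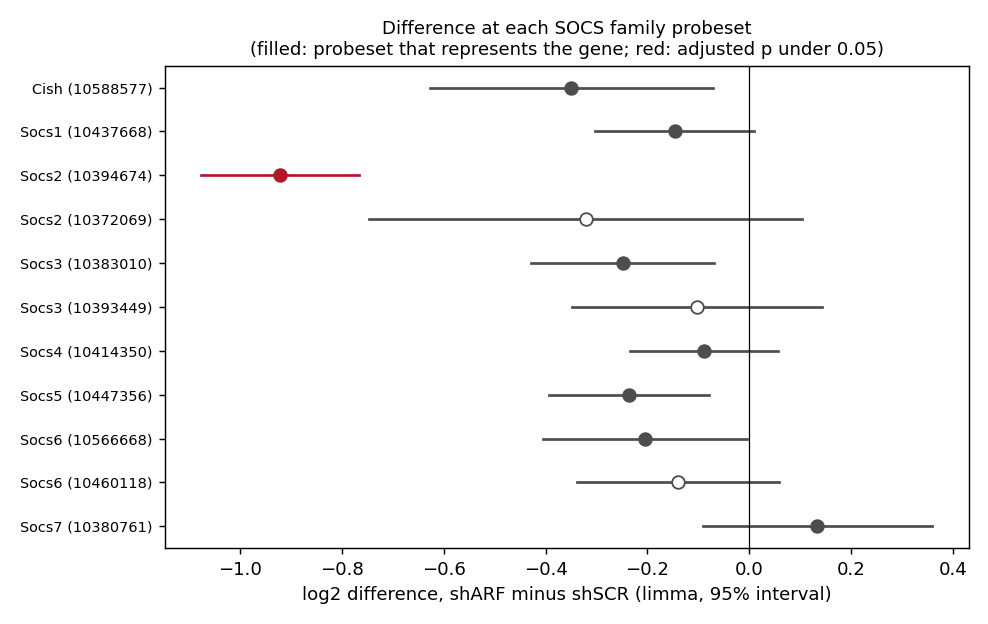
Log2 difference, shARF minus shSCR, with its 95% interval from limma at each of the 11 SOCS family probesets, filled where the probeset represents its gene. Only Socs2 at 10394674 passed the test, at -0.92, and the second Socs2 probeset sat at -0.32 with an interval that crosses 0.

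Across the 6 arrays, the genes whose log2 signal was most like that of Socs2 were Wnk3, Ptchd4, Tcfl5, Ppif and Clock, with Pearson r of 0.997, 0.997, 0.997, 0.996 and 0.995. These are descriptions over 6 arrays in 2 separated groups, so genes with a clean fall score high. Ptchd4, a membrane protein of the patched domain family, fell by 1.22, and Wnk3, a kinase that regulates ion transport, fell by 1.06. Ppif, the mitochondrial cyclophilin D, gave 195.9, 178.1 and 178.8 in shARF cells, against 347.4, 315.3 and 309.9 in shSCR cells. Clock, a core circadian transcription factor, fell by 0.57, and the transcription factor gene Tcfl5 by 0.50. All 5 passed the test (limma, adjusted p = 0.00121 to 0.008).

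**Figure D3:**
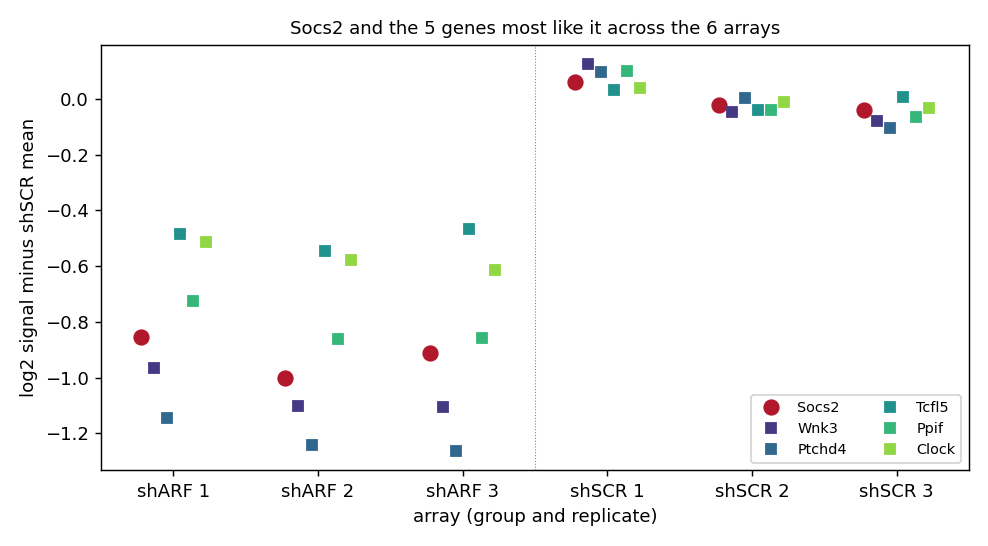
Log2 signal minus the shSCR mean on each of the 6 arrays, for Socs2 (red circles) and the 5 genes most like it (squares). All 6 genes lie below their shSCR arrays on every shARF array, Ptchd4 furthest at a difference of -1.22 and Tcfl5 least at -0.50.

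Of the cytokine ligand genes that signal through SOCS-controlled receptors, 10 of 18 were above the detection level. Among those 2 fell and 0 rose, where 2.38% of all genes were called lower. Il11, a cytokine of the interleukin 6 family, gave 46.2, 49.3 and 46.2 in shARF cells, against 63.9, 57.2 and 64.5 in shSCR cells. It fell by 0.39 ± 0.071 (limma, adjusted p = 0.0342). Tslp, an epithelial-type cytokine that acts through STAT5, fell by 0.93 ± 0.189 (limma, adjusted p = 0.046). Il6 and Lif missed the threshold at -0.34 and -0.29 (limma, adjusted p = 0.124 and 0.192). The list median was -0.18. The calls of Il11 and Tslp were each lost without 5 of the 6 arrays in turn, all but shSCR replicate 2, and both were lost with no filter. With all 6 arrays Il11 was also lost with arrays centred on their median and with the replicate number as a block. Tslp was also lost with repeated quantile normalization.

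Cytokine receptors were the pathway list, apart from the interferon targets, with the most calls. Of the 16 receptor genes above the detection level in both groups 5 fell and 0 rose, with a median of -0.23. Of their 16 differences 13 were below 0. Over all genes 2.38% were called lower, 53.2% had a difference below 0 and the median was -0.01. With Lepr, which is described after them, 6 of 17 were called and the median was -0.24. Il4ra, the interleukin 4 receptor chain, gave 245.4, 221.3 and 219.2 in shARF cells, against 338.7, 299.1 and 354.2 in shSCR cells. It fell 1.44-fold (limma, adjusted p = 0.0219). Osmr and Lifr, which pair with gp130 to receive oncostatin M and leukaemia inhibitory factor, fell by 0.41 and 0.42. Osmr gave 437.1, 407.8 and 403.2 in shARF cells, against 592.4, 532.6 and 537.9 in shSCR cells, with no overlap. Its call, like that of Cntfr, was made only with all 6 arrays. Cntfr, the ciliary neurotrophic factor receptor, fell by 0.35, and Ifngr1, which binds interferon gamma, by 0.56. The calls of Il4ra and Ifngr1 were each lost without 4 of the 6 arrays in turn, and that of Lifr without 5. With the replicate number as a block, the calls of Cntfr, Lifr and Ifngr1 were lost. The Cntfr call was also lost with no filter and with repeated quantile normalization.

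Lepr, the leptin receptor, was above the detection level on 0 shARF arrays, at a mean signal of 12.8, and on 3 shSCR arrays, at 21.2. Set against that level it was at least 1.46-fold lower in shARF cells. It entered the test only through the shSCR arrays, so its call is no support for a fall. The number of receptors called, Lepr included, was 3, 2 and 2 without shARF replicate 1, 2 and 3. It was 1, 2 and 1 without shSCR replicate 1, 2 and 3. Lepr was called in all 6 of these omissions. Without shSCR replicate 1 or 3 it was therefore the only receptor called.

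Among the kinases and transcription factors that SOCS proteins act on or are induced by, 8 of 11 were tested, 1 rose and 0 fell. The share of all genes called higher was 1.62%. Stat2, which carries the type I interferon signal, gave 299.1, 276.7 and 246.8 in shARF cells, against 111.9, 139.4 and 110.1 in shSCR cells (limma, adjusted p = 0.00459). Stat3, the main inducer of Socs3, gave 415.4, 442.6 and 419.5 in shARF cells, against 520.9, 506.7 and 517 in shSCR cells. The groups did not overlap, and the difference of -0.27 ± 0.058 narrowly missed the threshold (limma, adjusted p = 0.0504), which it passed under 5 of the 9 alternatives that keep all 6 arrays. Stat5a, an inducer of Cish and Socs2, differed by -0.26 and Jak2 by -0.23, and neither passed (limma, adjusted p = 0.129 and 0.127).

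Among inhibitors of the pathway outside the SOCS family, the 2 genes called lay in the opposite direction to Socs2, and the others were not called. Of 12 tested, 2 rose and 0 fell, where 1.62% of all genes were called higher, and the list median was 0.08. Usp18, which shuts off the type I interferon receptor, gave 216.3, 332.6 and 182.1 in shARF cells, against 34.5, 73.9 and 34.3 in shSCR cells, a 5.31-fold rise (limma, adjusted p = 0.0143). Its call was lost without shSCR replicate 1 or 3. Sh2b3, the adaptor LNK that restrains JAK2, gave 249.3, 228.4 and 239 in shARF cells, against 193, 175.6 and 173.4 in shSCR cells. It rose by 0.40 ± 0.070 (limma, adjusted p = 0.0275), and the call needed all 6 arrays. With all 6 it was lost with the replicate block (limma, adjusted p = 0.052). The PIAS genes and the tyrosine phosphatase genes tested did not pass.

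The machinery that SOCS boxes recruit showed 0 changes in limma or in a SAM-type test. All 9 tested subunits of the cullin 5 and cullin 2 ligases and their NEDD8 enzymes had differences between -0.07 and 0.12, with a median of 0.01, and 0 had an unadjusted p under 0.05. Rnf7, the RING subunit that works with cullin 5, differed by 0.05 ± 0.064 (limma, adjusted p = 0.673). Of 20 tested genes of other SOCS box proteins 0 passed limma's main test or the SAM-type test, and 5 had an unadjusted p under 0.05, where 22.2% of all genes did. Among them Spsb1, a SOCS box protein that controls inducible nitric oxide synthase, differed by 0.34 ± 0.084 (limma, adjusted p = 0.0832). It was called with a filter at the array median, with log2(signal + 16) and with a trend in limma's prior, and 1 gene of the list was called without shARF replicate 2.

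Of 14 tested tyrosine kinase receptors and adaptors that SOCS proteins bind, 1 fell and 0 rose, where 2.38% of all genes were called lower. Egfr, the epidermal growth factor receptor, gave 278.9, 252.8 and 286 in shARF cells, against 343.4, 334.3 and 342.9 in shSCR cells. It fell by 0.32 ± 0.067 (limma, adjusted p = 0.0494), and no set of 5 arrays kept that call. With all 6 arrays it was also lost with no filter, repeated quantile normalization, median centring or the replicate block. Met, the hepatocyte growth factor receptor, had a difference of 0.21 and missed the threshold (limma, adjusted p = 0.131).

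Target genes of STAT3 and STAT5, the factors that induce Socs3 and the pair Cish and Socs2, gave 1 fall each and 0 rises. The share of all genes called lower was 2.38%. Of 16 tested STAT3 targets Cebpd, a transcription factor of the acute phase response, fell by 0.46 ± 0.095 (limma, adjusted p = 0.0498), which likewise took all 6 arrays. The Cebpd call was lost with no filter, with repeated quantile normalization, with arrays centred on their median and with the replicate block. Of 10 tested STAT5 targets Id1, an inhibitor of basic helix-loop-helix factors that many other signals also induce, fell. It gave 323.1, 317.6 and 329.9 in shARF cells, against 584.5, 631.8 and 599.5 in shSCR cells, a log2 difference of -0.90 ± 0.059 (limma, adjusted p = 0.00154) that held without any 1 array. Igf1, a growth hormone and STAT5 target, had a difference of 0.36 ± 0.096, above 0, and missed the threshold (limma, adjusted p = 0.0959). The list medians were -0.09 and 0.00.

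**Figure D4:**
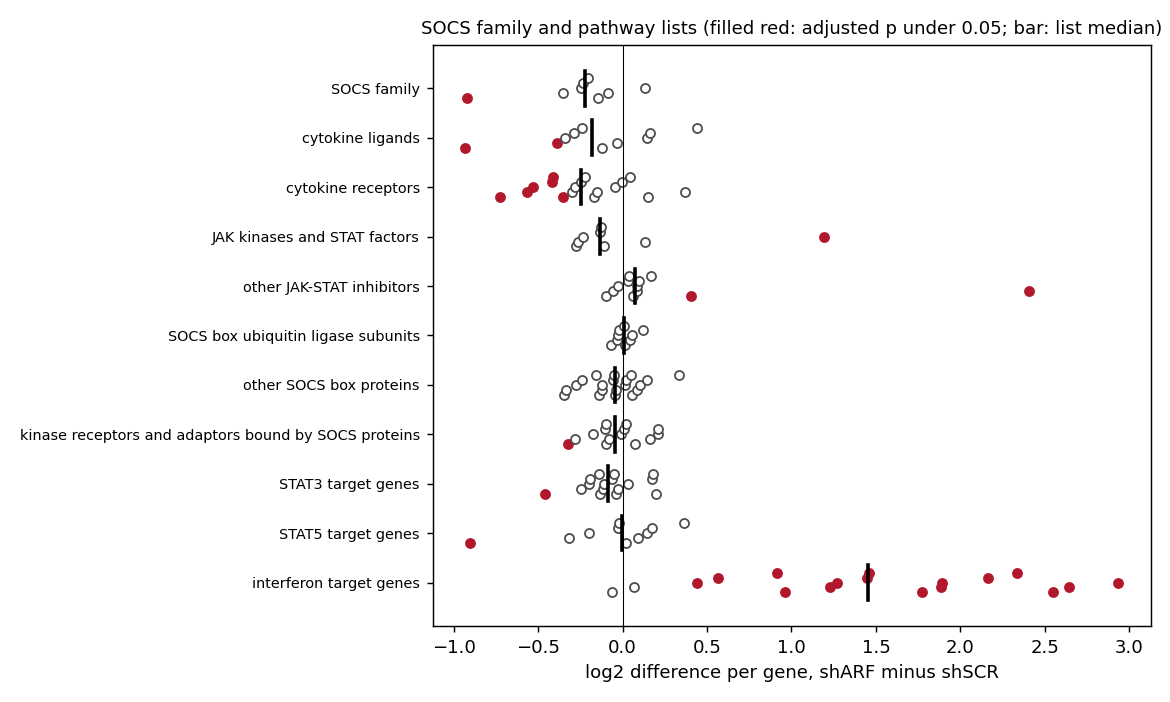
Log2 difference per tested gene, shARF minus shSCR, for the SOCS family and 10 lists of its pathway, filled red where the adjusted p was under 0.05, with a bar at each list's median. The interferon targets stand to the right with a median of 1.45, while the SOCS family (-0.22) and the cytokine receptors (-0.24) have medians below 0.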

How the data were processed

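The authors deposited 1 intensity per probeset and array, normalized with RMA in Affymetrix Expression Console per the submitters' processing notes and the design text, which also names core probesets; versions are not given in the sources used here. The deposited intensities are on a linear scale and were turned to log2. RMA equalises the arrays' distributions, so a shift of most genes would not show, and it shrinks folds of dim genes. A probeset was tested if its signal exceeded the 25th percentile of the array (14.1 to 14.9) on at least 3 of 6 arrays. This left 20310 probesets and 15145 genes, each gene represented by its brightest single-gene probeset. The test was limma's moderated one (version 3.58.1 under R 4.3.3, lmFit then eBayes, two-sided), with Benjamini-Hochberg adjustment over all tested probesets and a threshold of 0.05. The 15 alternatives vary the filter, offset, normalization, prior and probeset rule, add the replicate block, leave out each array, and use a SAM-type test over all 20 relabellings of the arrays, after the test the design text names. The code was tested on simulated data. Intervals of 95% are for single probesets. Where all arrays of 1 group were at or under that percentile, the fold is a bound against it. Names came from the platform annotation, in which 21056 probesets carry 1 symbol, 1450 several and 4345 none; genes without a probeset of their own were not analysed here, and some list genes are not reported here. Promoters and chromosomes came from RefSeq GRCm38.p6, and no array coordinates are printed.

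The family members, the 10 pathway lists and the 6 marker lists were chosen with earlier results of these data known. Named were all members, Cdkn2a, each list's 4 lowest p-values at most, and the 5 genes most like a called member. Other called genes of the lists were named after their values were seen, and so was Ptprc. Vim was also named outside this rule. Some members of lists had old symbols (Tceb1 and Tceb2, read as Eloc and Elob). Deviations of same-numbered arrays from their group means correlated at 0.0778, 0.0518 and 6.18e-04, so the replicate numbers were not used as pairs. Protein sequences were not used here.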

Additional observations from a re-analysis of the deposited data

How the results depend on the processing

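Socs2 was called lower under all 15 alternatives, with log2 differences of -0.96 to -0.62 and an adjusted p of at most 0.0189. The smallest difference came from averaging its probesets, a setting in which the dimmer one, with its smaller difference, counts equally. Each of these Socs2 calls rested on the brighter probeset, alone or in the average. The other members kept their direction under all 15, and the second probesets of Socs2, Socs3 and Socs6 in every alternative that gave a value. The second Socs2 probeset, 10372069, passed in 0 of its 13 alternatives (limma or SAM-type test, adjusted p = 0.199 to 0.592). Its differences ran from -0.47 to -0.09, the latter without shSCR replicate 1. The number of members called was 1 throughout except for 2 with a trend in limma's prior, where Socs5 passed. Of the genes on the pathway lists 30 were called, and leaving out each array in turn gave 13 to 22, the lowest without shSCR replicate 3 (13) and shSCR replicate 1 (14). With the replicate number as a block, 1 family member was called (Socs2, adjusted p in limma 0.00768) and 22 list genes. In that setting 3 cytokine receptors were called in place of 6, with Lepr counted in both numbers. It also gave 1 ligand in place of 2, and 0 tyrosine kinase receptors and 0 STAT3 targets in place of 1 each. Same-numbered arrays share only a number here. With no filter, 0 ligands, 0 tyrosine kinase receptors and 0 STAT3 targets were called. Over all genes 607 were called, with a range of 150 to 1239 over the alternatives: 372 with no filter, 996 with a filter at the array median, 978 with log2(signal + 16), 1239 with the trend, 997 with the SAM-type test, 336 with the block and 150 to 330 without 1 array. No setting reversed a member's sign. The 3 arrays per group limit the precision, and the 2 Socs2 probesets disagree in size.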
